A study of Mus musculus with 11 samples.

Results

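The TRIM genes encode tripartite motif proteins, and all genes whose symbol is Trim, a number and at most 1 further letter were taken from the table of gene counts. This gave 51 members among 19058 genes. They were measured by RNA sequencing of whole lacrimal glands from 11 male mice of the NOD strain, which spontaneously develops inflammation of the tear gland and serves as a model of Sjögren's syndrome. Glands came from 3 WT mice, 3 *Ifnar1* KO mice and 5 *Tlr7* KO mice, with 1 gland and 1 library per mouse. The *Ifnar1* KO mice are homozygous for the em16 allele of the type I interferon receptor gene and lack the receptor in all tissues. The *Tlr7* KO mice carry a 2 base-pair deletion made by CRISPR/Cas9 in *Tlr7*, the gene of an endosomal sensor of single-stranded RNA, and are likewise knocked out in all tissues. The WT and *Tlr7* KO mice were 20 to 22 weeks old, and no age is given for the *Ifnar1* KO mice in the sources used here. The same 3 WT mice served both comparisons with WT. Per the methods of the study, a further *Ifnar1* KO gland was set aside because its expression grouped with WT and its inflammation was at the WT level, so the *Ifnar1* KO mice compared here were in part retained by outcome, which bears on every *Ifnar1* KO comparison.

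TRIM proteins typically combine a RING domain, which gives many of them E3 ubiquitin ligase activity, with B-boxes and a coiled coil. A group of them is induced by interferon and takes part in antiviral defence. Type I interferon binds the receptor that contains the *Ifnar1* product and activates transcription factors that bind interferon-stimulated response elements (ISREs). TRIM25 modifies the RNA sensor RIG-I, and TRIM21, also known as Ro52, is a cytosolic antibody receptor and a well-known autoantigen in Sjögren's syndrome. Other members act in chromatin, in striated muscle or in neurons.

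Promoter sequences from RefSeq on GRCm38.p6, each running from 250 bases before to 50 bases after a start site, were matched by symbol for 39 members. The core of the ISRE was searched on both strands as GAAA, any 2 bases and GAAA again. It was present for 9 of these 39 members (23.1%) and for 3.99% of all 27025 genes with a promoter entry. The stretches of 7 tested members are shown to compare the matches of genes that were lower in *Ifnar1* KO with those of genes that were not called there. A further match of *Trim30a*, at base 3 of the transcript from another start site, and those of *Trim2* and *Trim12a* are not printed. That of *Trim2* began at base 29 of the transcript from one of its start sites, and *Trim2* was higher in *Ifnar1* KO, while that of *Trim12a* began at base 11, and *Trim12a* was not tested. The printed stretches read 5′ to 3′ on the strand of the gene, and the capitals mark the matched bases, overlapping matches joined. Their positions differ: the matches of *Trim21* and *Trim34a* began at bases 14 and 11 of the transcript. Those of *Trim12c*, *Trim30a*, *Trim30d*, *Trim5* and *Trim26* began 29, 36, 41, 49 and 160 bases before the start site. Those of *Trim21* (chr7:102565454-102565494, minus strand), *Trim30a* (chr7:104465195-104465254, minus strand) and *Trim30d* (chr7:104507856-104507915, minus strand) belong to genes that were lower in *Ifnar1* KO. Those of *Trim34a* (chr7:104244442-104244476, plus strand), *Trim5* (chr7:104288121-104288180, minus strand), *Trim12c* (chr7:104353350-104353403, minus strand) and *Trim26* (chr17:36836961-36837026, plus strand) belong to genes that did not pass the test there.
Trim21: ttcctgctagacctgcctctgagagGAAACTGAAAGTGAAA
Trim30a: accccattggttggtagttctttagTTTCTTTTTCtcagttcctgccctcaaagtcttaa
Trim30d: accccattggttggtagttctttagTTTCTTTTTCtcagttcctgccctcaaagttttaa
Trim34a: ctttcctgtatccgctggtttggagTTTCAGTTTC
Trim5: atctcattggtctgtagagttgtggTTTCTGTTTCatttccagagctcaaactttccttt
Trim12c: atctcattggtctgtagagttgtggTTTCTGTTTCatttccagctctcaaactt
Trim26: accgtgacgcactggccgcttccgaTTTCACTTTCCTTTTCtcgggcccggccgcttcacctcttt

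The printed stretches of *Trim30a* and *Trim30d* differed at 1 of 60 bases, and those of *Trim5* and *Trim12c* at 2 of 54. The unprinted 35 bases of *Trim12a* were the same as the first 35 of *Trim5* and of *Trim12c*. The matches of these neighbouring copies are therefore not separate observations. By class, the ISRE core was found for 3 of the 7 members with a promoter entry that fell in *Ifnar1* KO and for 5 of the 25 that were tested and did not fall. Another motif searched, the GAS core (TTC, any 3 bases and GAA), was present for 4 of the 39 members (10.3%) and for 9.55% of all genes. It was found for 0 of those 7 members and for 2 of those 25. A match describes the letters in this window only.

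Members were tested where the WT mice together had at least 30 counts, which 42 of the 51 did. This filter reads WT alone, so it admits members that are high in WT and near the floor in a knockout. Among the lower members described here, *Trim34b* had 3, 7 and 0 counts in *Ifnar1* KO, *Trim30d* 6, 9 and 4, and *Trim59* 4, 15 and 2. Under edgeR's filterByExpr, *Trim30d* was not tested in *Ifnar1* KO against WT, while in *Tlr7* KO against WT it was tested and lower. The *Ifnar1* KO libraries held 25542645 to 26845375 counts, the WT libraries 20512315 to 27174764 and the *Tlr7* KO libraries 24857275 to 28814250. Levels are given as CPM, counts scaled to library size with composition factors, and 3 counts corresponded to 0.082 to 0.158 CPM. Lacrimal epithelial markers summed to 10100 to 20400 CPM in the 11 mice, of which *Pip* alone made up 8670 to 18900 CPM. Of these 15 markers, 2 were lower and 1 higher in *Ifnar1* KO, where 12.1% and 6.92% of all genes were. In *Tlr7* KO 5 were lower and 3 higher, where 17.1% and 15.3% of all genes were. *Tlr7* read 1.52 to 2.94 CPM in WT, 0.494 to 0.95 CPM in *Tlr7* KO and also 0.251 to 0.822 CPM in *Ifnar1* KO, and *Ifnar1* read 10.5 to 15.1 CPM in WT and 8.34 to 9.63 CPM in *Ifnar1* KO. Counts over a whole gene do not show a deletion of a few bases. WT mouse 2 stood apart from the other WT mice, with 35 interferon-stimulated genes summing to 231 CPM against 625 and 622 CPM, and 12 B cell markers summing to 99 CPM against 351 and 308 CPM.

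The TRIM genes separated into 8 that were lower in *Ifnar1* KO than in WT, 2 that were higher and 32 that did not pass the test (edgeR's quasi-likelihood test, Benjamini-Hochberg adjusted p under 0.05 over all 13937 genes tested). The 8 lower members were *Trim34b*, *Trim30a*, *Trim30d*, *Trim59*, *Trim35*, *Trim25*, *Trim21* and *Trim56*, by 1.98-fold to 12.3-fold, and the 2 higher members were *Trim2* and *Trim68*. Lower calls made up 19% of the members against 12.1% of all genes, and higher calls 4.76% against 6.92%. The median log2 fold change was -0.16 over the members and -0.017 over all genes. The groups did not overlap in CPM for 14 members of 42, where 41.8% of all genes did not overlap. The members nearest the threshold were *Trim30d* inside it (adjusted p = 0.0445) and *Trim14* outside it (adjusted p = 0.0545).

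These calls depended on single mice. Without WT 2, 16 members were lower, including all 8, and 3 were higher. Without *Ifnar1* KO 2, 6 of the 8 remained lower and 1 member was higher. Leaving out WT 1, WT 3, *Ifnar1* KO 1 or *Ifnar1* KO 3 left 0 members called by edgeR, with 15, 12, 14 and 16 members respectively at an unadjusted p under 0.05, and 22, 88, 0 and 0 of all genes called. The direction of each of the 8 was the same in all of these fits, but the sizes moved. The log2 fold change ranged from -4.72 to -3.11 for *Trim34b*, -4.09 to -2.53 for *Trim59* and -3.72 to -2.63 for *Trim30a*.

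**Figure D1:**
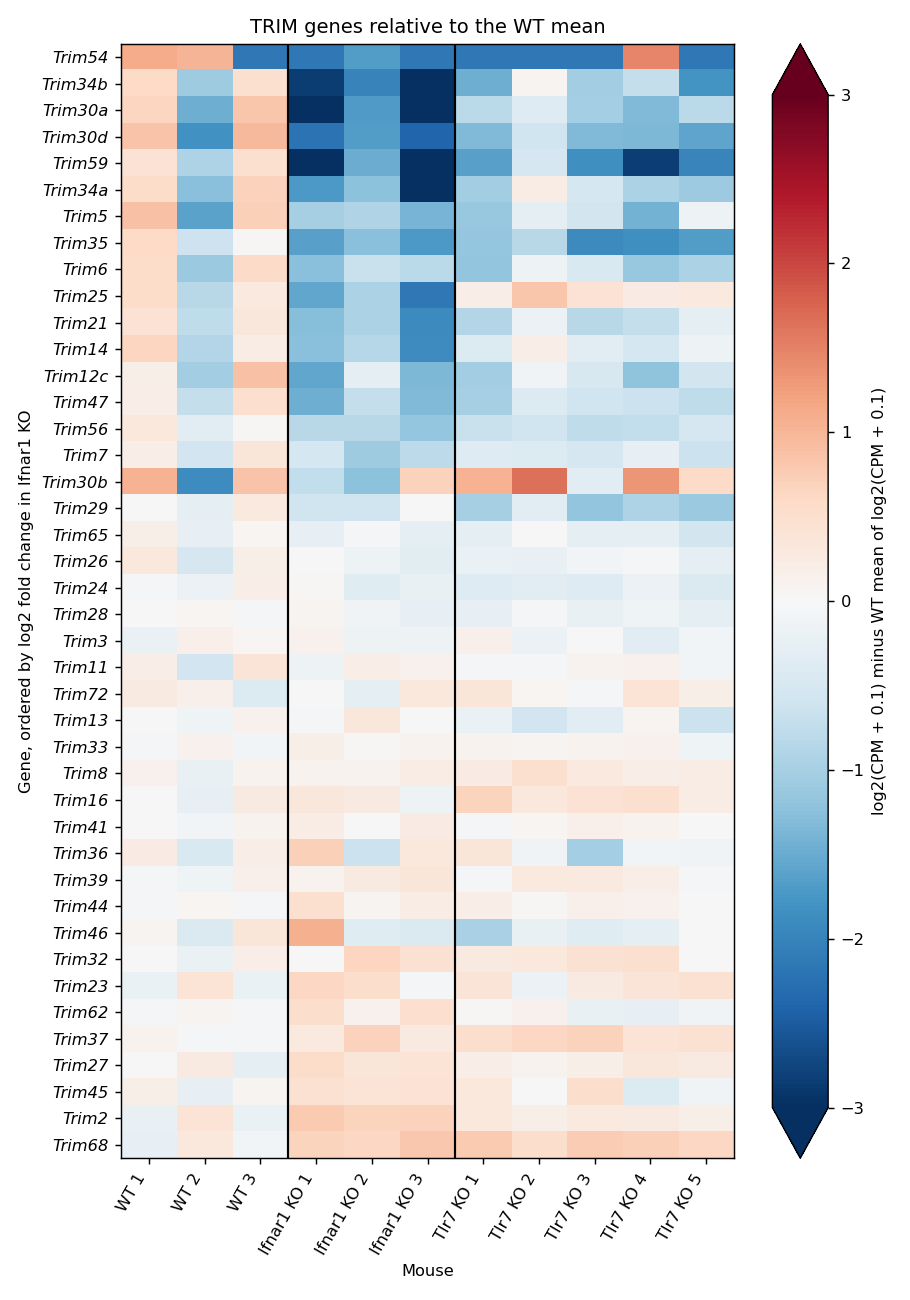
Level of each of the 42 tested TRIM genes (y axis, ordered by log2 fold change in *Ifnar1* KO) in each of the 11 mice (x axis), as log2(CPM + 0.1) minus the mean of the WT mice. Colours saturate at 3 log2 units, and WT 2 is paler or bluer than WT 1 and WT 3 for most of the genes at the top.

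In *Tlr7* KO, 7 members were lower than in WT and 2 were higher. The lower ones were *Trim59*, *Trim30d*, *Trim35*, *Trim29*, *Trim47*, *Trim56* and *Trim24*, and the higher ones *Trim68* and *Trim37*. Lower calls made up 16.7% of the members against 17.1% of all genes, and higher calls 4.76% against 15.3%, so neither share stood above that of all genes. The median log2 fold change was -0.20 over the members and -0.037 over all genes, and the groups did not overlap for 7 members, against 30.8% of all genes. Without WT 2, 19 members were lower, including these 7, and 5 were higher. Without any other mouse, 2 to 6 were lower and 2 or 3 higher. The lowest count of lower members, 2, came without WT 3, and 3 were lower without WT 1, *Tlr7* KO 1, *Tlr7* KO 3 or *Tlr7* KO 5.

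Between the knockouts, 3 of the 42 members (7.14%) differed, against 1.51% of all genes. *Trim25* and *Trim30a* were higher in *Tlr7* KO than in *Ifnar1* KO, as were 0.768% of all genes, and *Trim2* was lower, as were 0.746%. The median log2 difference was 0.05 over the members and 0.001 over all genes.

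**Figure D2:**
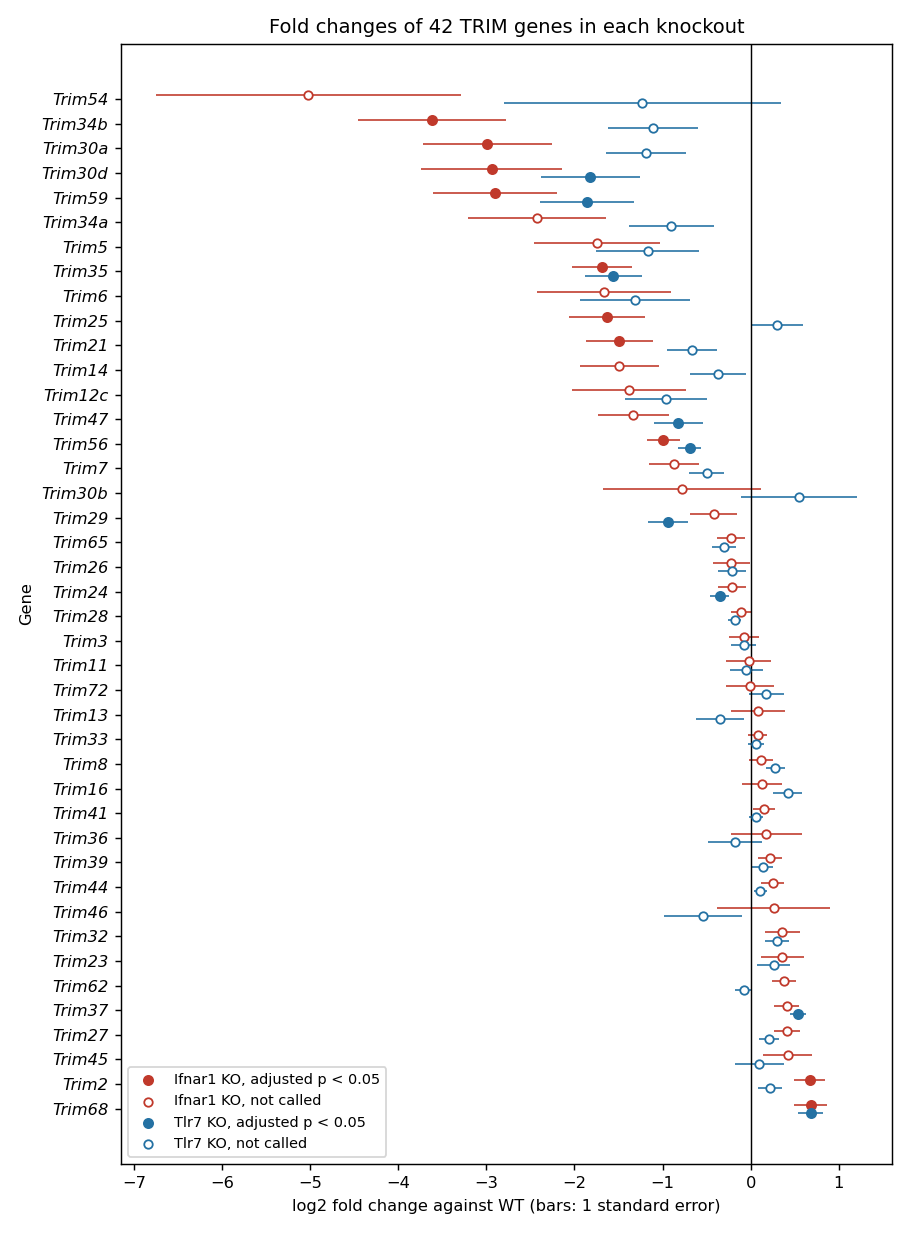
Log2 fold change against WT (x axis, bars 1 standard error) of the 42 tested TRIM genes (y axis) in *Ifnar1* KO (red) and *Tlr7* KO (blue), filled where the adjusted p was under 0.05. *Trim25* lies at -1.63 in *Ifnar1* KO and at 0.30 in *Tlr7* KO, and the value of *Trim54* rests on counts in a few mice.

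Among the members known as interferon-inducible and antiviral, 13 were tested. In *Ifnar1* KO 6 of the 13 were lower, where 12.1% of all genes were, and 0 higher, the 13 estimates all lay below 0, and the median log2 fold change was -1.63. In *Tlr7* KO 2 of the 13 were lower, a share no larger than the 17.1% of all genes, and 0 higher, with a median of -0.90. This count rested on WT 2: without that mouse, all of the 13 other than *Trim25* and *Trim30b* were lower in *Tlr7* KO. Between the knockouts 2 were higher in *Tlr7* KO, where 0.768% of all genes were, and the median difference was 1.09. By comparison, of 35 other interferon-stimulated genes 28 were lower in *Ifnar1* KO (median -2.90) and 3 in *Tlr7* KO (median -0.57). Of these 35, 15 were higher in *Tlr7* KO than in *Ifnar1* KO (median 2.28). The 28 became 0 without WT 1, *Ifnar1* KO 1 or *Ifnar1* KO 3, 1 without WT 3 and 35 without WT 2. The 3 became 19 without WT 2, 8 without *Tlr7* KO 2 and 1 without any other single mouse. Both counts became 0 with a replicate block.

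*Trim25* (ENSMUSG00000000275, GRCm38 chromosome 11, 88999376 to 89020293) encodes the ubiquitin ligase that acts on RIG-I. It read 17.7, 6.79 and 14.8 CPM in the WT mice, 4.02, 6.28 and 2.68 CPM in the *Ifnar1* KO mice, and 13.9, 21.7, 16.3, 14.4 and 14.8 CPM in the *Tlr7* KO mice. The *Ifnar1* KO mice lay below all others, while WT 1 and WT 3 lay within the *Tlr7* KO range. The log2 fold change was -1.63 ± 0.43 (SE) in *Ifnar1* KO (adjusted p = 0.0438) and 0.30 ± 0.29 in *Tlr7* KO (adjusted p = 0.464), whose sign was lost without WT 2 (-0.01). The difference between the knockouts was 1.90 ± 0.27, or 3.74-fold (adjusted p = 0.0182). It stayed past the threshold with each mouse left out in turn, other than *Ifnar1* KO 1 (adjusted p = 0.106), and missed it in a single fit of 11 mice (adjusted p = 0.052).

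*Ddx58*, which encodes RIG-I, was likewise lowest in *Ifnar1* KO. It read 7.59 to 19.5 CPM in WT, 4.19 to 6.05 CPM in *Ifnar1* KO and 10.8 to 18.7 CPM in *Tlr7* KO. *Ddx58* changed on the log2 scale by -1.48 ± 0.35 in *Ifnar1* KO (adjusted p = 0.0356) and -0.13 ± 0.30 in *Tlr7* KO (adjusted p = 0.766), and the knockouts differed by 1.33 ± 0.20 (adjusted p = 0.0143). It belongs to a list of 20 RIG-I pathway genes and ubiquitin partners of TRIM proteins, of which 3 were lower in *Ifnar1* KO and 1 was higher, close to the 12.1% and 6.92% of all genes. The other lower genes were *Ube2l6* (-2.22) and *Uba7* (-2.55), the conjugating and activating enzymes of ISG15, and the higher one was *Mavs* (0.58), the mitochondrial adaptor of RIG-I. In *Tlr7* KO 1 of the 20, *Traf3* (-0.32), was lower, where 17.1% of all genes were. There 5 were higher, where 15.3% of all genes were, by 0.20 to 0.40 on the log2 scale, namely *Mavs*, *Irf3*, *Ikbkg*, *Ube2d2a* and *Ube2d3*. The median of the 20 was -0.02 in *Ifnar1* KO and 0.04 in *Tlr7* KO, and *Ddx58* was the only one of them that differed between the knockouts.

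The *Trim30* genes lie at one end of a cluster of 10 members on chromosome 7 that spans 289 kb from 104218793 to 104507849, in the order *Trim6*, *Trim34a*, *Trim5*, *Trim12a*, *Trim34b*, *Trim12c*, *Trim30b*, *Trim30c*, *Trim30a* and *Trim30d*. Of these, *Trim34b*, *Trim30a* and *Trim30d* were lower in *Ifnar1* KO, 5 did not pass the test and 2 were not tested. Over all genes 12.1% were lower there. Near-identical copies share sequence here: of all 31-base words, 69% of those of *Trim34b* also occur in *Trim34a*, 37.9% of those of *Trim5* occur in *Trim12c*, and 38.7% of those of *Trim12c* occur in *Trim5*. The split of reads between such copies is therefore uncertain.

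*Trim30a* (ENSMUSG00000030921), whose product restrains signalling from Toll-like receptors to NF-κB, read 6.53, 1.43 and 7.49 CPM in the WT mice, 0.409, 1.2 and 0.377 CPM in *Ifnar1* KO, and 2.33, 3.17, 2.01, 1.61 and 2.32 CPM in *Tlr7* KO. Every *Ifnar1* KO mouse lay below every other mouse, and WT 2 lay below the *Tlr7* KO mice. The change was 7.95-fold lower in *Ifnar1* KO (log2 fold change -2.99 ± 0.73, adjusted p = 0.037). In *Tlr7* KO the log2 fold change was -1.19 ± 0.45 and missed the threshold (adjusted p = 0.0746). The knockouts differed by 1.78 ± 0.39 (adjusted p = 0.0474). That call remained only when *Ifnar1* KO 2 was left out and was lost without any other single mouse (adjusted p = 0.0678 to 0.171) and in a single fit of 11 mice (adjusted p = 0.234).

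*Trim30d* (ENSMUSG00000057596) read 2.43, 0.295 and 2.65 CPM in the WT mice, 0.204, 0.336 and 0.168 CPM in *Ifnar1* KO, and 0.459, 0.826, 0.456, 0.453 and 0.37 CPM in *Tlr7* KO. WT 2 lay inside the *Ifnar1* KO range and below all *Tlr7* KO mice. It was lower by 2.94 ± 0.80 on the log2 scale in *Ifnar1* KO (adjusted p = 0.0445), and its log2 fold change was -1.82 ± 0.56 in *Tlr7* KO (adjusted p = 0.0355), a call kept in 2 of 8 fits with 1 mouse left out in turn. From the second table of counts its *Ifnar1* KO change was -2.88 (adjusted p = 0.0519). *Trim30b* read 1.64, 0.127 and 1.42 CPM in the WT mice, 0.409, 0.262 and 1.26 CPM in *Ifnar1* KO, and 1.65, 2.57, 0.57, 2.02 and 1.16 CPM in *Tlr7* KO. The groups of *Trim30b* overlapped, at -0.78 ± 0.90 in *Ifnar1* KO (adjusted p = 0.562) and 0.55 ± 0.66 in *Tlr7* KO (adjusted p = 0.556). These values depend on the table: the second table of counts gave *Trim30b* 15, 1 and 11 counts in WT, 0 in each *Ifnar1* KO mouse and 0 to 3 in the *Tlr7* KO mice, too few there to be tested.

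*Trim34b* (ENSMUSG00000090215) read 2.09, 0.591 and 1.91 CPM in the WT mice, 0.102, 0.262 and 0 CPM in *Ifnar1* KO, and 0.421, 1.44, 0.608, 0.783 and 0.317 CPM in *Tlr7* KO. The *Ifnar1* KO values lay below those of all other mice. The log2 fold change was -3.62 ± 0.84 in *Ifnar1* KO (adjusted p = 0.0304) and -1.11 ± 0.51 in *Tlr7* KO (adjusted p = 0.12). Its close copy *Trim34a* read 2.05, 0.506 and 2.27 CPM in the WT mice, 0.34, 0.523 and 0.0419 CPM in *Ifnar1* KO, and 0.612, 1.61, 0.912, 0.659 and 0.581 CPM in *Tlr7* KO. WT 2 overlapped the *Ifnar1* KO mice for *Trim34a*, whose log2 fold change of -2.42 ± 0.78 missed the threshold (adjusted p = 0.068), as did -0.90 ± 0.49 in *Tlr7* KO (adjusted p = 0.182).

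The remaining tested genes of the cluster include relatives of the retroviral restriction factor TRIM5. *Trim5* read 1.4, 0.169 and 1.23 CPM in the WT mice, 0.306, 0.336 and 0.209 CPM in *Ifnar1* KO, and 0.268, 0.565, 0.456, 0.206 and 0.634 CPM in *Tlr7* KO. *Trim12c* read 1.03, 0.38 and 1.72 CPM in the WT mice, 0.238, 0.71 and 0.293 CPM in *Ifnar1* KO, and 0.383, 0.826, 0.608, 0.33 and 0.581 CPM in *Tlr7* KO. *Trim6* read 0.479, 0.0844 and 0.492 CPM in the WT mice, 0.0681, 0.149 and 0.126 CPM in *Ifnar1* KO, and 0.0765, 0.261, 0.19, 0.0824 and 0.106 CPM in *Tlr7* KO. In each of the 3 genes WT 1 and WT 3 stood above the other mice. WT 2 lay among the knockouts for *Trim12c* and *Trim6* and below all of them for *Trim5*. Their log2 fold changes in *Ifnar1* KO were -1.74 for *Trim5*, -1.38 for *Trim12c* and -1.66 for *Trim6* (adjusted p = 0.119, 0.161 and 0.153), and none of the 3 passed in *Tlr7* KO (adjusted p = 0.146, 0.135 and 0.13).

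*Trim21* (ENSMUSG00000030966, chromosome 7, 102557921 to 102565486, minus strand) read 8.55, 3.63 and 7.9 CPM in the WT mice, 2.52, 3.18 and 1.59 CPM in *Ifnar1* KO, and 3.37, 5.52, 3.46, 3.75 and 5.18 CPM in *Tlr7* KO. The *Ifnar1* KO mice lay below all others, and WT 2 lay within the *Tlr7* KO range. The log2 fold change was -1.49 ± 0.38 in *Ifnar1* KO (adjusted p = 0.0375) and -0.67 ± 0.28 in *Tlr7* KO (adjusted p = 0.0989), and the difference of 0.80 ± 0.25 between the knockouts missed the threshold (adjusted p = 0.142). *Trim68*, which encodes the autoantigen SS-56 and whose gene begins 112095 bases further along the chromosome, moved the other way and is described with the higher members.

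*Trim56* (ENSMUSG00000043279, chromosome 5), an antiviral ligase, read 20.6, 13.1 and 17.1 CPM in the WT mice, 9.33, 9.34 and 7.41 CPM in *Ifnar1* KO, and 10.4, 10.9, 9.84, 9.97 and 11.7 CPM in *Tlr7* KO. Its groups did not overlap in any comparison, with WT highest and *Ifnar1* KO lowest. It was 1.98-fold lower in *Ifnar1* KO (adjusted p = 0.0239) and 1.61-fold lower in *Tlr7* KO (adjusted p = 0.00513), and the latter call held with each mouse left out in turn. The difference between the knockouts was 0.28 ± 0.10 (adjusted p = 0.223).

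*Trim14*, an adaptor of mitochondrial antiviral signalling, read 5.06, 1.69 and 3.75 CPM in the WT mice, 1.29, 1.72 and 0.796 CPM in *Ifnar1* KO, and 2.37, 3.7, 2.51, 2.18 and 2.85 CPM in *Tlr7* KO. The *Tlr7* KO mice lay above all *Ifnar1* KO mice, while WT 2 fell among the latter. Its log2 fold change was -1.49 ± 0.45 in *Ifnar1* KO and -0.37 ± 0.31 in *Tlr7* KO (adjusted p = 0.382), and the knockouts differed by 1.09 ± 0.27 (adjusted p = 0.0708). *Trim26* read 21.5, 12.2 and 19.4 CPM in the WT mice, 17.3, 15.5 and 13.6 CPM in *Ifnar1* KO, and 15, 14.7, 16.2, 16.8 and 14.1 CPM in *Tlr7* KO. These ranges overlapped, and the log2 fold changes of *Trim26* were -0.22 ± 0.21 and -0.21 ± 0.16 in *Ifnar1* KO and *Tlr7* KO.

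Outside the interferon-inducible members, *Trim59* and *Trim35* were lower in both knockouts. *Trim59* (ENSMUSG00000034317, chromosome 3), which encodes a membrane-anchored member, read 2.43, 0.886 and 2.49 CPM in the WT mice, 0.136, 0.561 and 0.0838 CPM in *Ifnar1* KO, and 0.498, 1.22, 0.418, 0.165 and 0.37 CPM in *Tlr7* KO. WT 2 lay above the *Ifnar1* KO mice but below *Tlr7* KO 2. *Trim59* changed on the log2 scale by -2.90 ± 0.70 in *Ifnar1* KO (adjusted p = 0.0333) and -1.86 ± 0.53 in *Tlr7* KO (adjusted p = 0.0257). With 1 mouse left out in turn, the *Tlr7* KO call of *Trim59* was kept in 3 of 8 fits.

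*Trim35* (ENSMUSG00000022043, chromosome 14) read 7.53, 3.16 and 5.06 CPM in the WT mice, 1.53, 2.02 and 1.42 CPM in *Ifnar1* KO, and 2.14, 2.74, 1.25, 1.32 and 1.48 CPM in *Tlr7* KO. All 3 WT mice lay above all 8 knockout mice, whose ranges overlapped each other. It was 3.22-fold lower in *Ifnar1* KO (log2 fold change -1.69 ± 0.34, adjusted p = 0.0254) and 2.94-fold lower in *Tlr7* KO (-1.56 ± 0.32, adjusted p = 0.00764). The *Tlr7* KO call held with each mouse left out in turn. The estimated difference between the knockouts was 0.11 ± 0.28 (adjusted p = 0.881).

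**Figure D3:**
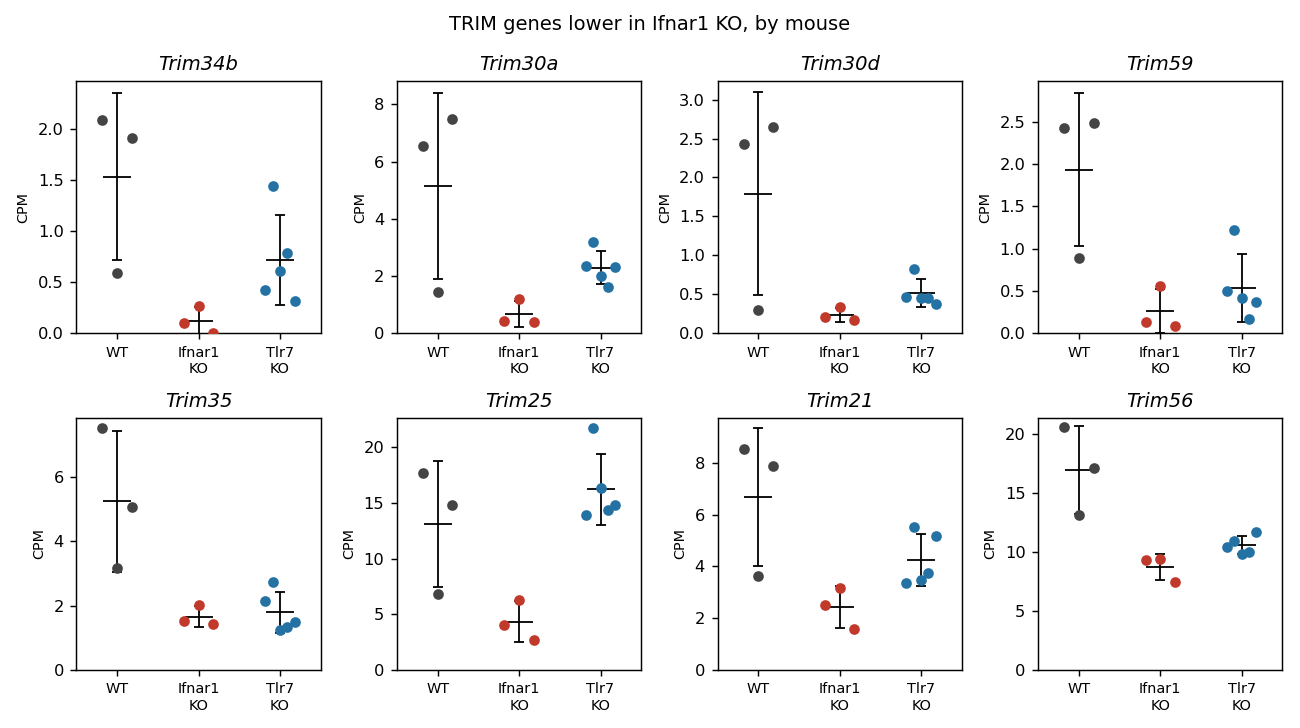
CPM (y axis) by mouse of the 8 TRIM genes lower in *Ifnar1* KO, with each point a mouse and bars showing the mean and SD of 3 WT, 3 *Ifnar1* KO and 5 *Tlr7* KO mice. The *Tlr7* KO mice lie at 13.9 to 21.7 CPM for *Trim25* and at 1.25 to 2.74 CPM for *Trim35*.

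Most markers of B and T cells were lower in both knockouts, while those of plasma cells were not. The 12 B cell markers summed to 99 to 351 CPM in WT, 2.76 to 25.6 CPM in *Ifnar1* KO and 7.71 to 64.2 CPM in *Tlr7* KO, and all 12 were lower in each knockout. The 15 T cell markers summed to 34.1 to 107, 3.77 to 21.3 and 9.65 to 44.3 CPM, and 10 were lower in *Ifnar1* KO and 11 in *Tlr7* KO. Of 13 myeloid markers tested, 5 were lower in each knockout. The 8 plasma cell markers summed to 733 to 905 CPM in WT, 712 to 882 CPM in *Ifnar1* KO and 688 to 759 CPM in *Tlr7* KO. Of these 8, 1 was lower and 2 were higher in *Ifnar1* KO, and 3 were lower and 2 higher in *Tlr7* KO. For these counts, the share of all genes that were lower was 12.1% in *Ifnar1* KO and 17.1% in *Tlr7* KO. The share that were higher was 6.92% and 15.3%. No marker of these lists was at 0 in all mice of a group. In whole glands, fewer cells of a type and less RNA per cell cannot be told apart, and the part of these cells in the TRIM values was not tested.

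Interferon-stimulated genes were also read in the same mice. The 35 genes summed to 231 to 625 CPM in WT, 66.3 to 144 CPM in *Ifnar1* KO and 216 to 502 CPM in *Tlr7* KO, with *Tlr7* KO 2 highest in its group. *Ifi27l2a* (-3.52), *Sp100* (-1.11), which encodes a nuclear body protein, and *Parp14* (-2.77) were lower in *Ifnar1* KO. *Stat2*, a transcription factor of the interferon pathway, had a log2 fold change of -1.38 there and missed the threshold (adjusted p = 0.0671). Of these 4 abundant interferon-stimulated genes, *Sp100* was lower in *Tlr7* KO too (-0.81, adjusted p = 0.00782).

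*Trim2* and *Trim68* were higher in *Ifnar1* KO, each by less than 2-fold. *Trim2* (ENSMUSG00000027993, chromosome 3), an NHL repeat member known from neurons, read 15.4, 24.1 and 15.7 CPM in the WT mice, 31.2, 28.6 and 29.2 CPM in *Ifnar1* KO, and 22.5, 20.2, 22.2, 21.7 and 20.5 CPM in *Tlr7* KO. The *Ifnar1* KO mice lay above all others, and WT 2 lay above the *Tlr7* KO mice. The log2 fold change was 0.67 ± 0.18 in *Ifnar1* KO (adjusted p = 0.0402) and 0.22 ± 0.14 in *Tlr7* KO (adjusted p = 0.244). The difference between the knockouts was -0.46 ± 0.07 (adjusted p = 0.00805) and stayed past the threshold with each mouse left out in turn, but not in a single fit of 11 mice (adjusted p = 0.146).

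*Trim68* (ENSMUSG00000073968) read 4.07, 6.12 and 4.59 CPM in the WT mice, 7.73, 7.51 and 8.63 CPM in *Ifnar1* KO, and 8.46, 7.04, 8.28, 8.03 and 7.55 CPM in *Tlr7* KO. All 8 knockout mice lay above all 3 WT mice. The log2 fold change was 0.68 in each knockout, with an SE of 0.18 in *Ifnar1* KO (adjusted p = 0.0419) and 0.14 in *Tlr7* KO (adjusted p = 0.00702). The latter call held with each mouse left out in turn. *Trim21* and *Trim68*, whose products are both autoantigens in Sjögren's syndrome, thus had *Ifnar1* KO changes of opposite sign.

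*Trim37*, *Trim29*, *Trim47* and *Trim24* passed the test in *Tlr7* KO but not in *Ifnar1* KO, and none of the 4 differed between the knockouts by test. *Trim37*, a ligase of the centrosome and peroxisome, read 10.7, 9.62 and 9.65 CPM in the WT mice, 12.3, 16.1 and 12 CPM in *Ifnar1* KO, and 14.5, 15.3, 16.1, 13.3 and 13.7 CPM in *Tlr7* KO. The WT mice lay below all knockout mice, with estimates of 0.54 ± 0.09 on the log2 scale in *Tlr7* KO (adjusted p = 0.00261) and, short of the threshold, 0.41 ± 0.14 in *Ifnar1* KO (adjusted p = 0.0793). *Trim29*, an epithelial member, read 3.59, 2.87 and 4.35 CPM in the WT mice, 2.32, 2.32 and 3.6 CPM in *Ifnar1* KO, and 1.72, 2.78, 1.52, 1.81 and 1.58 CPM in *Tlr7* KO, and it fell by 0.94 ± 0.23 on the log2 scale in the last of these groups (adjusted p = 0.0133). *Trim47* (-0.82, adjusted p = 0.0481) and *Trim24* (-0.35, adjusted p = 0.0323), a chromatin reader of the TIF1 group, were lower in *Tlr7* KO. With 1 mouse left out in turn, the *Tlr7* KO call of *Trim47* was kept in 1 of 8 fits and that of *Trim24* in 2 of 8. In *Ifnar1* KO the estimate of *Trim47* was further below 0, at -1.33 (adjusted p = 0.0577), and that of *Trim24* was -0.21 (adjusted p = 0.373). DESeq2 and a single fit of 11 mice called *Trim47* lower in *Ifnar1* KO.

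**Figure D4:**
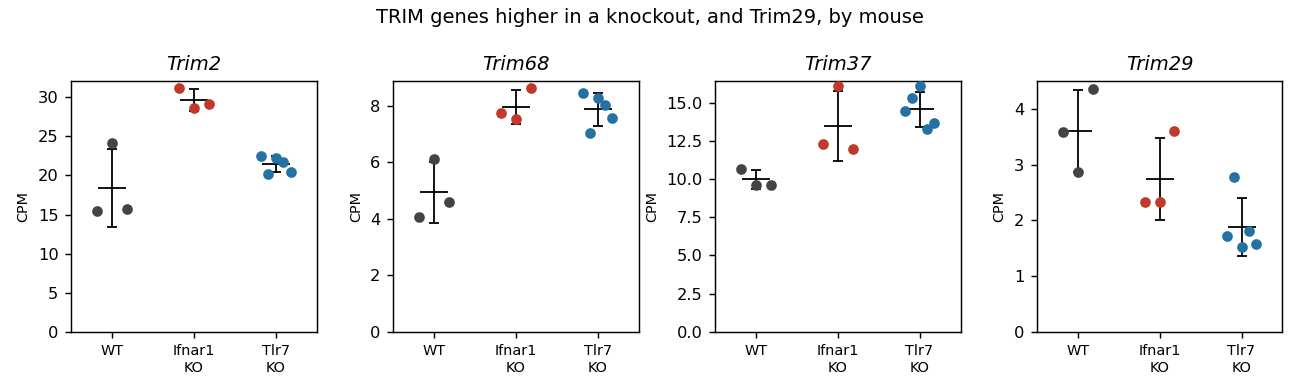
CPM (y axis) by mouse of *Trim2*, *Trim68*, *Trim37* and *Trim29*, with each point a mouse and bars showing the mean and SD of each group. For *Trim68* the WT mice lie at 4.07 to 6.12 CPM and the knockout mice at 7.04 to 8.63 CPM.

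The other roles gave few calls. Of the 3 tested TIF1 members, which bind chromatin and include the corepressor gene *Trim28*, 0 passed in *Ifnar1* KO and *Trim24* passed in *Tlr7* KO, while *Trim28* stood at -0.11 and -0.18 and *Trim33* at 0.08 and 0.06. Of the 3 NHL repeat members, *Trim3* (-0.08 in each knockout) and *Trim32* (0.36 and 0.30) did not pass. The microtubule-associated *Trim36* (0.18 and -0.18) and *Trim46* (0.26 and -0.54) did not pass either, nor did the membrane-anchored *Trim13* (0.08 and -0.35). The 17 tested members without an assigned role had a median of 0.15 in *Ifnar1* KO, with 1 lower and 1 higher, and 0.10 in *Tlr7* KO, with 3 lower and 2 higher. Over all genes 12.1% were lower and 6.92% higher in *Ifnar1* KO, and 17.1% lower and 15.3% higher in *Tlr7* KO, so these counts did not stand apart from the shares of all genes.

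Per kb of annotated exon, *Trim8* was the most abundant member in WT, at 11.8 CPM per kb, followed by *Trim28* at 5.99 and *Trim44* at 5.12 CPM per kb. *Trim25* ranked 9 at 2.28 CPM per kb, and *Trim56* and *Trim21* ranked 11 and 12 at 1.82 and 1.8 CPM per kb. *Trim8* read 37.1 to 47.7 CPM in WT, 46.9 to 50.4 CPM in *Ifnar1* KO and 49.7 to 61 CPM in *Tlr7* KO, at log2 fold changes of 0.12 ± 0.13 and 0.28 ± 0.11 (adjusted p = 0.558 and 0.0729). *Trim44* stood at 0.25 and 0.11 (adjusted p = 0.19 and 0.289). The 3 most abundant members thus did not pass the test in either knockout in the main fits. In *Tlr7* KO, *Trim8* was called higher with DESeq2 and in a single fit of 11 mice, and *Trim28* lower with library size only.

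Of the tested members known from striated muscle, *Trim54* was read in a few mice and *Trim72* in all. *Trim54*, a muscle ring-finger gene, had 25, 19 and 0 counts in WT, 0, 1 and 0 in *Ifnar1* KO, and 0, 0, 0, 27 and 0 in *Tlr7* KO. The 14 muscle markers, such as *Acta1*, summed to 527 CPM in WT 1, 358 CPM in WT 2 and 377 CPM in *Tlr7* KO 4, to 13.9 CPM in *Ifnar1* KO 2, and to 0.456 to 0.957 CPM in the other mice. *Trim54* was therefore read in the same 4 mice in which these markers were highest, and it passed the test in no comparison (adjusted p = 0.0801, 0.578 and 0.491). *Trim72*, another muscle member, had 58 to 96 counts in every mouse and log2 fold changes of -0.01 and 0.18.

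**Figure D5:**
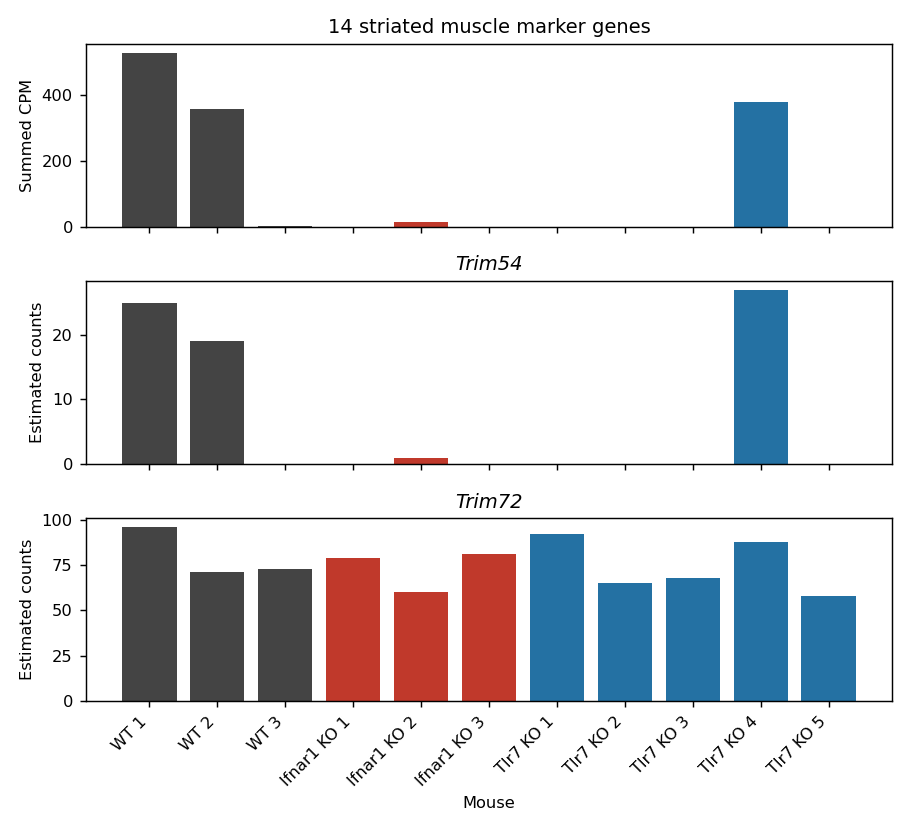
Summed CPM of 14 striated muscle markers and estimated counts of *Trim54* and *Trim72* (y axes) in each mouse (x axis), coloured by group. *Trim54* has 25, 19 and 27 counts in WT 1, WT 2 and *Tlr7* KO 4, and *Trim72* has 58 to 96 counts in all mice.

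The 9 members that were not tested had at most 16 counts in any mouse. *Trim63*, a muscle ring-finger gene, had 3 to 16 counts in WT, 1 to 5 in *Ifnar1* KO and 0 to 9 in *Tlr7* KO. *Trim55* had 5, 3 and 0 counts in WT and at most 1 in any knockout mouse. *Trim10*, *Trim12a*, *Trim15*, *Trim17*, *Trim30c*, *Trim66* and *Trim67* had 0 to 6 counts per mouse, and differences in them were not detectable at this depth.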

How the data were processed

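RNA from 1 lacrimal gland per mouse was sequenced by the authors, with transcript quantification by salmon and summing per gene by tximport. The resulting estimated counts were deposited by the authors as whole numbers, and this main table covers 19058 genes. Its name calls them normalized, yet column totals vary as in unscaled libraries, and they were treated as unscaled. A second deposited table of counts for 39017 genes served as an alternative. The submitters' processing notes name HISAT2 2.1.0 and mm10 without saying for which table. A further column of an *Ifnar1* KO mouse with no sample (1 column) was not used. The methods of the study state that an *Ifnar1* KO gland resembling WT in expression and inflammation was left out by the authors.

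Genes with at least 30 counts over the WT mice were tested with edgeR 4.0.16 in R 4.3.3 (TMM scaling, robust quasi-likelihood test, separate fits per pair of groups, two-sided, Benjamini-Hochberg adjustment, threshold 0.05). The SE is the log2 fold change divided by the square root of F. CPM use the TMM factors of all 11 mice. The scripts were tested on simulated data. Positions are from GENCODE M21 (GRCm38). Alternatives were DESeq2 1.42.0, library size only, RLE size factors, no gene filter, edgeR's filterByExpr, a single fit of 11 mice, the second table, a replicate block and leaving out each mouse.

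The members, role lists and marker lists were chosen with earlier results of these data known, and the lists were written from general knowledge. Per-mouse values are given for members called in *Ifnar1* KO with at least 2-fold change and for all tested interferon-inducible members; of other members, those called are named with their log2 fold change, and the 3 most abundant per length are named. The per-mouse values of *Trim2*, *Trim68*, *Trim37*, *Trim29* and the muscle members and the gene *Ddx58* were added after their values were seen. P-values measure the spread between mice, and floors of 3 counts cover counting error only. Of the 5 interferon-stimulated genes most abundant in WT, 4 are named, and the other is not reported here.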

Additional observations from a re-analysis of the deposited data

Results flagged for a closer look

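Among the 42 tested members, the 5 *Tlr7* KO mice were checked for a single mouse far from the rest, and 4 members had one, where chance gives about 1 in 20 groups, or 2.1 of 42. *Trim29* read 2.78 CPM in *Tlr7* KO 2, with the next mouse at 1.81 CPM. *Trim30d* read 0.826 CPM in the same mouse, with the next at 0.459 CPM. *Trim33* read 14.3 CPM in *Tlr7* KO 5, below the next at 16.6 CPM. *Trim54* read 1.11 CPM in *Tlr7* KO 4 and 0 CPM in the other *Tlr7* KO mice.

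The effects of the knockouts differed by a test of the difference for 3 members. *Tlr7* KO stood above *Ifnar1* KO for *Trim25* (log2 difference 1.90) and *Trim30a* (1.78), and below it for *Trim2* (-0.46).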

How the results depend on the processing

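The 8 lower members in *Ifnar1* KO became 13 with DESeq2, which included all 8, 4 with library size only and 0 with the replicate block, and ranged from 0 to 16 with 1 mouse left out. The 2 higher became 5 in a single fit of 11 mice, 0 with library size only and 0 with the replicate block, and ranged from 0 to 3. In *Tlr7* KO the 7 lower became 15 with library size only and 0 with the replicate block (range 2 to 19), and the 2 higher became 0 with either (range 2 to 5). The 3 that differed between the knockouts became 6 with DESeq2, 6 with the replicate block and 0 in a single fit of 11 mice, where *Trim25* had an adjusted p of 0.052 (range 1 to 7). With the block, 15 members in *Ifnar1* KO and 7 in *Tlr7* KO had an unadjusted p under 0.05. In the single fit of the difference between the knockouts 9 did. Same-numbered mice deviated from their group means with correlations of -0.44 to 0.03 against WT and 0.06 to 0.34 between the knockouts. Differently numbered mice were not compared, so these values cannot show whether the replicate numbers pair the mice. With the block, 598 of all genes differed between the knockouts, against 211 without it. Library size only moved the median of all genes to -0.312 in *Ifnar1* KO, -0.536 in *Tlr7* KO and -0.190 between the knockouts. It turned the *Tlr7* KO values of *Trim2* to -0.21, *Trim25* to -0.29 and *Trim30b* to -0.07, and the difference between the knockouts for *Trim35* to -0.07. Values near 0 turned sign elsewhere: *Trim25* in *Tlr7* KO to -0.01 without WT 2 (up to 0.57 with another mouse left out), and, between the knockouts, *Trim35* to -0.09 without *Tlr7* KO 2 (up to 0.28) and *Trim68* to 0.02 with the block, 0.05 without *Ifnar1* KO 3, 0.03 without *Tlr7* KO 2 and 0.00 without *Tlr7* KO 5 (down to -0.05). The cause was not tested. Depth limits the members with fewer than 30 WT counts.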
